A study of Mus musculus with 12 samples.

Results

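Mouse cells at day 4 of reprogramming that are labelled as overexpressing Dux are compared here, gene by gene, with day 4 cells that received the overexpression control. The comparison takes in every gene that reached 1 FPKM in 3 or more of the 6 day 4 libraries, which were 14532 of the 40384 genes of the table. FPKM counts fragments per kilobase of exon, scaled to the depth of the library. All groups are of 4F2A cells, from male homozygous 4F2A embryos at mid-gestation. 4F2A is a mouse line whose cells carry doxycycline-inducible Oct4 (Pou5f1), Sox2, Klf4 and Myc. The labels give all samples 1 culture text, with LIF and doxycycline at 2 μg/mL. The D4 group is labelled OE-NC. The D4_DUX group is labelled OE-DUX, and its overexpression lasted 48 h. Each has 3 libraries. Fibroblasts (MEF) and induced pluripotent stem cells (iPSC), also with 3 libraries each, serve below only to place the genes that differed. The labels give neither the vector that carried Dux nor whether a group's libraries came from distinct cultures, and without that the p-values may measure technical spread alone.

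Reprogramming by Oct4, Sox2, Klf4 and Myc takes fibroblasts through an early phase in which matrix, contractile and other mesenchymal genes are shut down and epithelial genes are turned on, while the pluripotency network comes later. Most cells do not complete the path, and many enter states that belong to neither the fibroblast nor the pluripotent cell. Dux is a homeobox transcription factor of the early cleavage embryo, and forcing its expression in embryonic stem cells turns on genes of that stage. The question of the comparison, as far as the labels give it, is what Dux overexpression during reprogramming changed at day 4.

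The 6 day 4 libraries held 22510000 to 26840000 counted fragments, recovered from the steps of the FPKM values, and 14317 to 14378 genes reached 1 FPKM in each. The annotated Dux gene, Duxf3, was at 0.00741, 0.00747 and 0 FPKM in the D4 libraries and was listed at 0 in all 3 libraries labelled D4_DUX. These values are below 3 fragments, which correspond to 0.0414 to 0.0494 FPKM, so Duxf3 does not carry the change of the label. A transgene of another sequence would not be counted in Duxf3, which was not tested. All directions below are those of the libraries labelled D4_DUX, written D4_DUX. The 4 reprogramming factors differed too. Pou5f1 was at 50.95, 45.95 and 57.9 FPKM in D4 and 73.55, 71.7 and 71.8 in D4_DUX, and Sox2 at 69.2, 59.3 and 73.8 and 98.4, 90.4 and 96.5. Klf4 was at 98.2, 95.4 and 100.3 and 131, 123 and 128, and Myc at 103, 108 and 107 and 137, 129 and 129. The groups did not overlap in any of the 4, and D4_DUX was higher in each (log2 fold changes 0.49, 0.49, 0.37 and 0.31; adjusted p = 0.000201, 0.00143, 0.00451 and 0.0103, limma). Transgene and endogenous transcripts are not told apart in these counts, and the part of this difference in the results below was not tested.

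The day 4 groups differed in many genes by small amounts. At a Benjamini-Hochberg adjusted p under 0.05 in a limma fit of log2(FPKM + 1), 3398 genes (23.4% of those tested) were higher and 2406 (16.6%) lower in D4_DUX, which is 39.9% of all genes tested in either direction. Without D4 replicate 2, which stands apart for interferon-induced genes (below), 3032 were higher and 2101 lower. The median size of a called change was 0.27 on the log2 scale, and 57.3% of the called changes were smaller than 0.3. A change of at least 2-fold was seen in 70 called genes that rose (0.482% of those tested) and 114 that fell (0.784%). The median of all genes was 0.04, and 5% of genes lay under -0.44 and 5% above 0.42. In 7882 genes (54.2%) the 3 libraries of D4_DUX did not overlap with the 3 of D4, so that absence of overlap alone does not set a gene apart here. Genes of 20 to 100 FPKM were called higher in 31.9% and lower in 16% of cases, genes under 2 FPKM in 15% and 18.3%. Between libraries, Pearson r on the log2 scale was 0.993 to 0.994 within D4, 0.995 within D4_DUX and 0.978 to 0.981 between the groups.

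**Figure D1:**
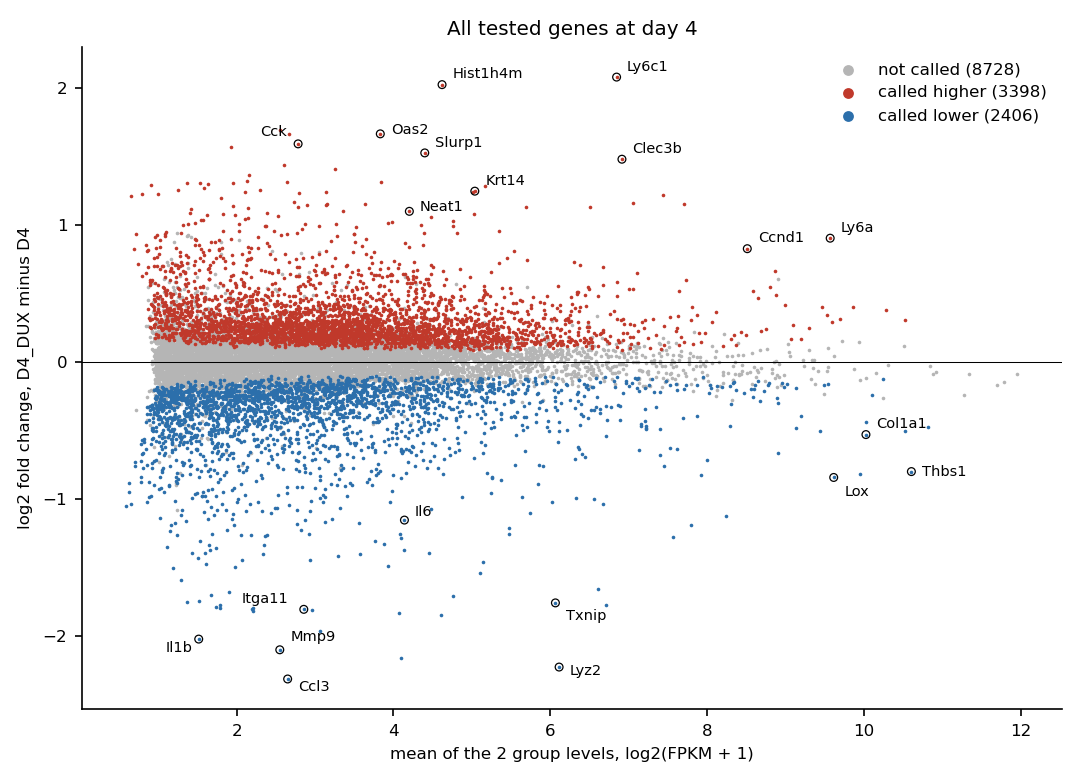
Each of the 14532 tested genes by its mean level (x axis, log2(FPKM + 1), mean of the D4 and D4_DUX group levels) and its log2 fold change, D4_DUX minus D4 (y axis). Red points are the 3398 genes called higher, blue the 2406 called lower and grey the rest; most called genes lie close to 0, and open circles mark 20 genes described in the text.

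Values below are FPKM, fold changes are on log2(FPKM + 1) from D4 to D4_DUX, and adjusted p-values are those of limma with Benjamini-Hochberg adjustment over all 14532 genes. Counts of gene lists below are to be read against the 23.4% of all tested genes called higher and the 16.6% called lower. Genes named for the size of their change, on either scale, were taken only from genes without overlap between the groups. The largest rise on the log2 scale among the named genes was that of Ly6c1. Ly6c1, a lipid-anchored surface protein of the Ly6 family, lies on chromosome 15, 75044018 to 75048830 (GRCm38). It had 56.04, 56.8 and 52.01 FPKM in the 3 D4 libraries and 245, 230 and 230.5 in the 3 D4_DUX libraries (log2 fold change 2.08, SE 0.11, adjusted p = 1.69e-07). Every D4_DUX library was above every D4 library by about 4 times. Its neighbour Ly6a, which encodes the stem cell antigen Sca-1, was at 549, 593 and 521 and 1010, 1029 and 1073 FPKM (0.90, adjusted p = 0.0001255), the largest rise in absolute level of the named genes. Slurp1, a secreted Ly6-type protein of keratinocytes, was at 11.4, 11.2 and 11.6 and 35.7, 32.98 and 35.8 FPKM (1.53, adjusted p = 6.32e-09). Lypd2, next to it on the chromosome, was at 7.57, 9.04 and 7.55 and 23.7, 21.4 and 19.5 (1.31). Of 33 listed Ly6 and three-finger genes 11 passed the filter, 6 of them higher and 1 lower, with a median of 0.90. The 4 above were joined by Ly6c2 (0.986 to 3.896 FPKM (1.30)) and Psca (0.837 to 2.66 FPKM (1.01)). Both had D4 means under 1 FPKM, so their passing of the filter rested on D4_DUX libraries, where they were high. Lynx1, which binds nicotinic receptors, was the 1 called lower (10.5 to 9.26 FPKM (-0.17)), and it was not called without D4 replicate 1 or 3 or D4_DUX replicate 1 or 3 (adjusted p = 0.0621 to 0.132). Ly6c1 and Ly6c2 are close copies, and how shared fragments were divided was not given in the sources used here.

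Clec3b, which encodes the plasminogen-binding protein tetranectin, was at 69.5, 73.2 and 70.8 FPKM in D4 and 213, 200 and 188 in D4_DUX (log2 fold change 1.48, SE 0.06, adjusted p = 2.72e-08). Mal, a membrane protein of apical transport in epithelia, was at 34.6, 33.4 and 34.1 and 76.2, 73.8 and 76.7 (1.13, adjusted p = 1.35e-08). The groups were far apart in both genes and the spread within a group was small. Tnxb, the matrix glycoprotein tenascin-X, rose from 2.71 ± 0.394 to 9 ± 0.451 FPKM (SD, n = 3; 1.435), and the matrix protein gene Vit, vitrin, from 1.98 ± 0.186 to 5.52 ± 0.816 (1.12). Wnt7a, a Wnt ligand, rose from 2.95 ± 0.41 to 8.8 ± 0.711 (1.31). Cck, the peptide hormone cholecystokinin, rose from 2.96 ± 0.22 to 10.98 ± 1.39 (1.59), and Mme, the peptidase neprilysin, from 7.35 ± 0.393 to 17.6 ± 0.665 (1.16). Eef1a2, the elongation factor of muscle and neurons, rose from 3.44 to 9 FPKM (1.17), and Serpinb9b, a clade B serpin, from 14.5 to 31.3 FPKM (1.06). Tspan15, a tetraspanin that partners with the sheddase Adam10, rose from 4.95 to 12.2 FPKM (1.15), Cyp4f39 from 3.68 to 9.199 FPKM (1.13) and Efhd1 from 1.79 to 5.61 FPKM (1.24).

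Among abundant genes, Ccnd1, the cyclin D1 that drives entry into the cell cycle, was at 275, 268 and 275 FPKM in D4 and 491, 483 and 482 in D4_DUX (log2 fold change 0.83, SE 0.04, adjusted p = 1.55e-07). All D4_DUX libraries lay within 10 FPKM of each other and above all D4 libraries. Efemp1, the elastic matrix protein fibulin-3, was at 365, 404 and 339 and 565, 592 and 598 (0.67). Timp2, an inhibitor of metalloproteinases, was at 399, 395 and 393 and 554, 542 and 571.5 (0.49). S100a4, a calcium-binding protein, rose from 614 to 810.5 FPKM (0.40). The ferritin light chain gene Ftl1 rose from 742 to 925 FPKM (0.32) and the ubiquitin gene Ubb from 697.5 to 854 FPKM (0.29). B2m, the light chain of MHC class I, rose from 1096 to 1417 FPKM (0.38).

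Genes of stratified and surface epithelium were more often higher than lower. Of 53 listed genes of this kind 27 passed the filter, and 15 were higher and 6 lower, against 23.4% and 16.6% of all genes, with a median of 0.24. Krt14, a keratin of basal epidermis, was at 19.6, 18.9 and 22.4 FPKM in D4 and 50.1, 44.4 and 54.3 in D4_DUX (log2 fold change 1.25, SE 0.09, adjusted p = 1.59e-06). The water channel genes Aqp3 and Aqp5 were at 20.8, 23.7 and 21.2 and 20.2, 20.2 and 19.4 in D4 and at 53.6, 52.6 and 58.7 and 49.2, 47.6 and 49.2 in D4_DUX (1.29 and 1.24). In all 3 genes the lowest D4_DUX library was about 2 times the highest D4 library or more. Pkp1, a desmosome plaque protein, was at 7.395, 6.905 and 7.17 and 14.6, 14.75 and 14.4 (0.93). The cornified envelope protein genes Ppl and Evpl rose from 1.797 to 3.655 FPKM (0.73) and from 2.91 to 4.51 FPKM (0.50), and Krt80 from 2.17 to 6.59 FPKM (1.26). Fallers of the list were Sprr2d, Krt13, Dmkn, Pkp2, Emp1 and Dsc2, the last of which was not called without D4 replicate 1 or 3 or D4_DUX replicate 1 or 2 (adjusted p = 0.1 to 0.133). Emp1, a membrane protein induced by growth signals, was the most abundant of these and fell from 519.9 to 433 FPKM (-0.26), and Krt13, a keratin of mucosal epithelia, fell from 10 to 7.56 FPKM (-0.36).

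Mesothelial genes, those of the lining of body cavities, split. Of 26 listed, 24 passed the filter and 11 were higher and 5 lower, with a median of -0.01. Msln, the surface protein mesothelin, was at 342, 350.4 and 327 FPKM in D4 and 473, 469.6 and 465 in D4_DUX (0.46, adjusted p = 0.00331), and the uroplakin gene Upk3b at 31.6, 31.03 and 29.2 and 53.2, 51.6 and 48.3 (0.72, adjusted p = 2.54e-06). The simple keratins Krt8 and Krt19 rose from 2.57 to 10.3 FPKM (1.66) and from 3.53 to 9.66 FPKM (1.23). By contrast Aldh1a2, the retinaldehyde dehydrogenase of mesothelium, fell from 7.02 to 3.125 FPKM (-0.97), and Wt1, the transcription factor of mesothelial cells, was at 3.195, 2.99 and 2.69 and 2.195, 2.615 and 2.355 FPKM, which did not pass the test (-0.22, adjusted p = 0.0525). With median-ratio scaling, or with quantile normalization, 8 members of the list were lower.

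Genes induced by interferon were among the 30 that rose most. Oas2, a sensor of double-stranded RNA, was at 6.02, 9.798 and 5.495 FPKM in D4 and 24.01, 23.9 and 24.2 in D4_DUX (log2 fold change 1.665, SE 0.18, adjusted p = 4.18e-05). Isg15, a ubiquitin-like protein, was at 48.2, 93.6 and 44.8 and 122, 134 and 135 FPKM (1.135, SE 0.29, adjusted p = 0.00855). Among the D4 libraries replicate 2 was the high one in both genes. It lay below every D4_DUX library, as the rule that named these genes required. Usp18, the protease that removes Isg15, was at 4.83, 9.34 and 4.25 and 13.8, 13.2 and 13.95 (1.10), and Xaf1 at 15.9, 23.9 and 14.6 and 36.1, 36.8 and 38.9 (1.03). Apol9b was at 4.44, 7.39 and 3.39 and 10, 13.3 and 13.04 (1.16). Again D4 replicate 2 was the highest of the D4 libraries. Left out, it raised the log2 fold changes to 1.89 (Oas2), 1.47 (Isg15), 1.41 (Usp18), 1.24 (Xaf1) and 1.42 (Apol9b). Not every such gene differed: Ifit3 was at 11.4, 27.05 and 9.14 and 23.1, 22.9 and 19.01 FPKM, with overlap between the groups (0.57, adjusted p = 0.292). Rsad2, also induced by interferon, had a log2 fold change of 0.00267 (adjusted p = 0.995). The risers above were taken from the 30 genes that rose most, and no list of interferon-induced genes was counted.

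Promoters of tested genes were searched for 13 motifs of transcription factors in the RefSeq promoter table (GRCm38.p6, 250 bases before to 50 after the gene start, both strands). Of 14488 tested symbols 9565 had a promoter there, and none of the replication-dependent histones had. The interferon response motif GAAANNGAA was present in 15.9% of 270 promoters of genes called higher with a log2 fold change of at least 0.5, in 7.73% of 427 promoters of genes called lower by as much, in 7.09% of the 12180 promoters of tested genes and in 8.56% of all 32851. At a change of at least 2-fold it was in 5 of 32 promoters of genes higher (15.6%) and 8 of 72 of genes lower (11.1%). The promoters of Ifit3 and Rsad2, which were not called, hold 3 matches and 1 match. The promoter of Isg15, at chr4:156200769-156201068 (minus strand), holds 3 overlapping matches, and is shown with them in capitals because its gene has the highest level of the interferon-induced genes named above.
Isg15: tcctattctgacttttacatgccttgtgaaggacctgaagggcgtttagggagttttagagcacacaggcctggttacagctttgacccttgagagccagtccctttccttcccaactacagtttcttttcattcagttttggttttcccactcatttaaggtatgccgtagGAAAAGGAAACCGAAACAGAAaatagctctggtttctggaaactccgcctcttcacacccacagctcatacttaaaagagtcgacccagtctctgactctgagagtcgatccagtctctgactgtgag

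The AP-1 motif TGANTCA was in 8 of 32 promoters (25%) of genes called higher by at least 2-fold, which belong to 6 genes, Apol9b, Mme, Prl3d3, Tnxb, Tspan15 and Xaf1, some with more than 1 overlapping promoter in the table. It was in 11 of 72 promoters (15.3%) of genes called lower by at least 2-fold and in 5.16% of the promoters of tested genes. At a change of at least 0.5 it was in 10.4% of promoters of genes higher and 10.3% of those lower, and over all called genes in 4.93% and 6.73%. Among the fallers were the protease genes Mmp10, Mmp12 and Mmp13 and the cytokine genes Il1a, Il6 and Lif. A TATA box, TATAAA, was in 20.8% of the promoters of genes lower by at least 2-fold, 12.5% of those higher by at least 2-fold and 7.08% of those tested, and at a change of at least 0.5 in 15.9% and 11.9%. The motif of Dux itself was in 5 of 3103 promoters of genes called higher, 2 of 2155 of genes called lower and 11 of 12180 tested. The promoters of Tspan15 at chr10:62231169-62231468 (minus strand) and Tnxb at chr17:34670285-34670584 (plus strand), both of genes that rose by more than 2-fold, are shown with the AP-1 match in capitals.
Tspan15: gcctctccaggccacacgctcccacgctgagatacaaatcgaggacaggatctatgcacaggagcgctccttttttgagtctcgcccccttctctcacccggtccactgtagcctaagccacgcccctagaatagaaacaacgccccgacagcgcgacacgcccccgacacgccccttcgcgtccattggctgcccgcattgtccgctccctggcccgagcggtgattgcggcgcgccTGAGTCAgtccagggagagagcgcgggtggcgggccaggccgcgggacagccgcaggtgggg
Tnxb: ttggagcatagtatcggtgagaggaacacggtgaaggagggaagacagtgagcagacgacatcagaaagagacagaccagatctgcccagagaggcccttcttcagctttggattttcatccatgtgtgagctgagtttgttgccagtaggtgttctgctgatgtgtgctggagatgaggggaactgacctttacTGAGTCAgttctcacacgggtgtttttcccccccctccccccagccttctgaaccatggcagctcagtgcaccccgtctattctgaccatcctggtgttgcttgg

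Genes that fell most were of macrophages, matrix, proteases and growth factor response. Ccn2, a matricellular protein and target of YAP and TGF-beta (chromosome 10, 24595442 to 24598683), had 168.5, 184 and 164 FPKM in D4 and 49.6, 57.2 and 54.97 in D4_DUX (log2 fold change -1.66, SE 0.11, adjusted p = 1.05e-06). D4_DUX libraries lay far below every D4 library. Txnip, which binds thioredoxin and is induced by glucose, was at 118, 133 and 115 and 32.5, 37.7 and 36.1 (-1.76, adjusted p = 5.52e-08), and Arrdc4, an arrestin-domain gene with like control, fell from 12.1 to 6.76 FPKM (-0.75). Rgs16, a regulator of G protein signalling, was at 55.98, 60.4 and 56.1 and 19.1, 21.3 and 20.6 (-1.46). The immediate early genes Egr1 and Fos were at 28.02, 30.75 and 33.3 and 21.98, 23.6 and 28.2 in D4 and at 7.58, 8.33 and 7.77 and 7.59, 8.66 and 8.01 in D4_DUX (-1.83 and -1.49). Ccn2, Txnip, Rgs16, Egr1 and Fos were named by a rule that required groups without overlap, so their separation is no added result. Zfp36, whose protein destabilizes cytokine mRNAs, fell from 20.3 to 7.61 FPKM (-1.31).

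Other members of the 30 that fell most were the matrix protein genes Egfl6 (5.41 to 0.851 FPKM (-1.79)), Mfap4 (14.95 to 4.99 FPKM (-1.41)) and Postn (45.2 to 11.9 FPKM (-1.84)), the carboxypeptidase-like gene Cpxm1, at 34.4, 34.4 and 34.4 FPKM in D4 and 12.9, 13.05 and 11.6 in D4_DUX, and the BMP-family ligand gene Gdf6 (7.06 to 2.201 FPKM (-1.33)). The acute phase genes Saa3, Hp and Lcn2, induced by inflammatory cytokines, fell from 293 to 121 FPKM (-1.27), from 18.4 to 6.35 FPKM (-1.40) and from 22.3 to 8.29 FPKM (-1.33). Genes of macrophages made up most of the rest: Lyz2, Ctss, Marco, Fcer1g, Tyrobp, C1qb and Adgre1. All 11 of the macrophage markers that passed the filter, of 16 listed, were lower, with a median of -1.45. Of these, C1qa, C1qc and Fcer1g reached 1 FPKM only in D4. They passed the filter through the group where they were high, so their direction is no added result. Their summed level was 187 to 222 FPKM in D4 and 48.9 to 49.8 in D4_DUX, and none of the 16 was at 0 in all 6 libraries. Lyz2 made up most of this sum, at 147.8, 163.7 and 134.8 FPKM in D4 and 30.6, 30 and 32.4 in D4_DUX. In bulk RNA, fewer cells of a type and less RNA per cell cannot be told apart. Of 10 fibroblast markers 5 were lower and none higher, and their summed level was 3303 to 3419 in D4 and 2547 to 2625 in D4_DUX. Col1a1 and Col1a2 had the largest falls in level of this list, from 1250 to 866 FPKM (-0.53) and from 821 to 580 FPKM (-0.50). Within that list Pdgfra, the PDGF receptor alpha, fell from 17.5 to 9.58 FPKM (-0.81), while Dcn, Prrx1 and Twist1 had log2 fold changes of -0.01, 0.06 and -0.08 and did not pass the test. Thy1 and Pdgfrb (-0.17 and -0.16) did not pass it either. Pluripotent cell markers summed to 1.20 to 1.502 FPKM in D4 and 1.06 to 1.46 in D4_DUX, with none tested. The endothelial list summed to 14.3 to 14.8 and 20.3 to 22.8 FPKM, with its member Cldn5 at 0 in all 6 libraries. Tek alone carried that sum, at 13.3, 13.9 and 13.3 FPKM in D4 and 22.3, 19.8 and 21.8 in D4_DUX, while Kdr was at 0.646, 0.551 and 0.579 and at 0.279, 0.334 and 0.255, and the other endothelial markers were below 0.3 FPKM. Neutrophil, mast cell, lymphocyte and erythroid markers summed to 1.05 FPKM or less.

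**Figure D2:**
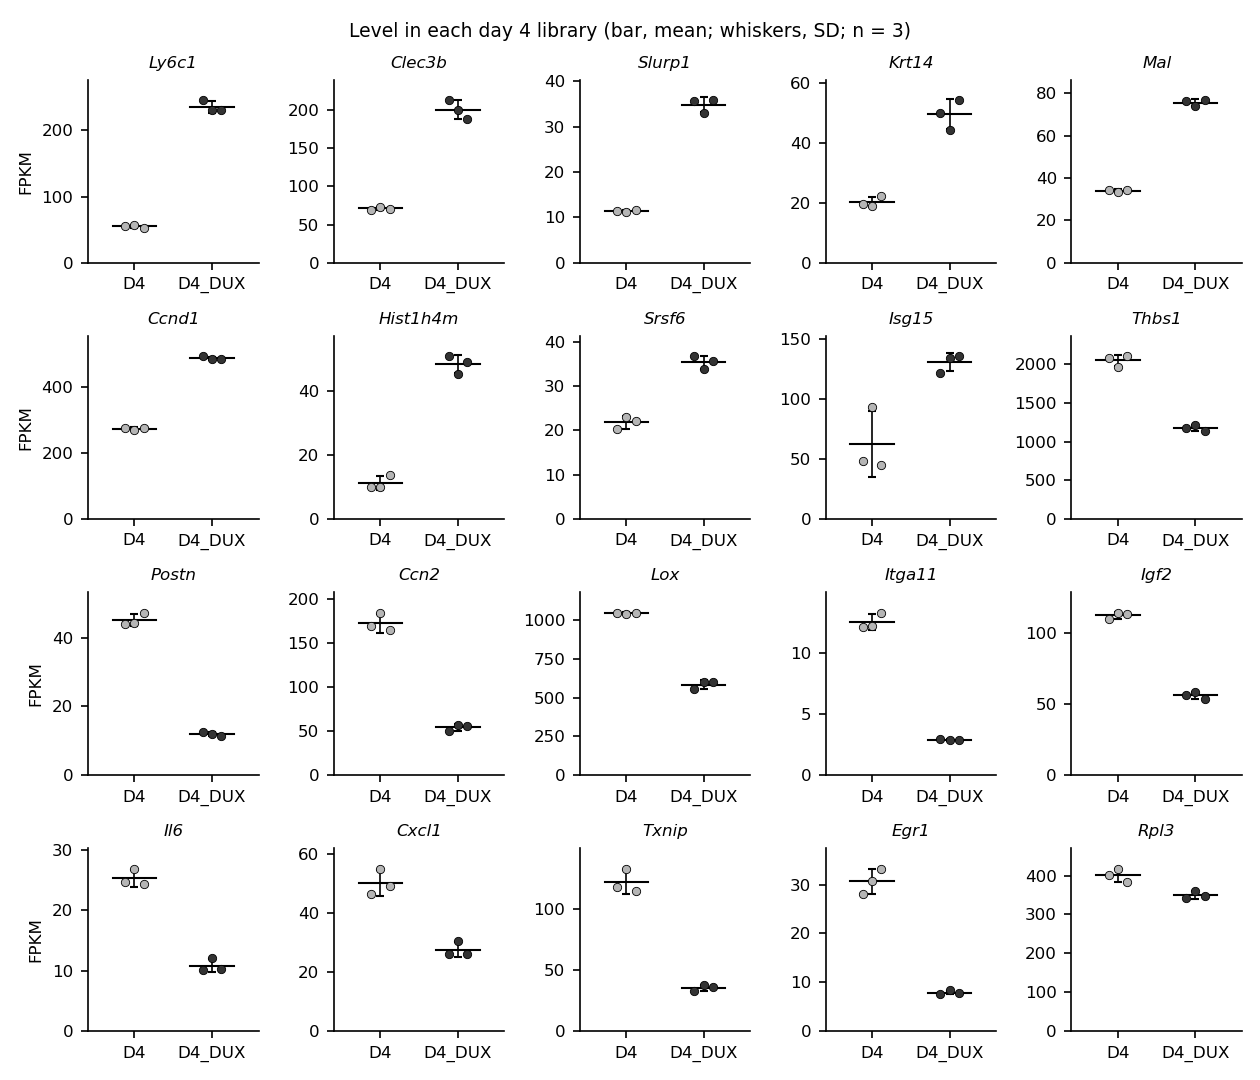
FPKM (y axes, each from 0) of 20 genes in each day 4 library, D4 (grey points) and D4_DUX (dark points), with the mean (bar) and SD (whiskers) of n = 3 libraries. The groups do not overlap in any of the 20 genes, which the rule for naming genes required of most of them. Relative to its mean, Isg15 has the widest spread within D4, where replicate 2 is at 93.6 FPKM.

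The risers and fallers stood differently in the other groups of the series. Of the 41 protein-coding genes higher by at least 2-fold, 20 (48.8%) had a mean under 1 FPKM in both MEF and iPSC, against 3.0% of the 99 lower by at least 2-fold and 3.0% of all 11766 protein-coding genes tested. Clec3b had means of 0.0119 FPKM in MEF and 0.284 in iPSC, Mal 0.0283 and 0.0556, Krt14 0.0599 and 0.0925, and Slurp1 0.00101 and 0.00551. The D4 mean was above both the MEF and the iPSC mean in 30 of the 41 (73.2%), in 21 of the 99 (21.2%) and in 32.3% of all. Of the 99 fallers 69 (69.7%) had a higher mean in MEF than in D4, among them Postn (369 FPKM in MEF), Mfap4 (169) and Itga11 (42.2). This was so in 6 of the 41 risers (14.6%) and in 42.1% of all protein-coding genes tested. Over all called genes, 59.4% of those higher in D4_DUX were also higher in iPSC than in MEF and 24.9% lower. Of those lower, 57.6% were lower and 30.8% higher. Of all tested genes 47.5% were higher and 33.8% lower in iPSC. The 70 genes higher by at least 2-fold were higher in iPSC in 38.6% and lower in 18.6%, below the share of all tested genes in either direction.

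**Figure D3:**
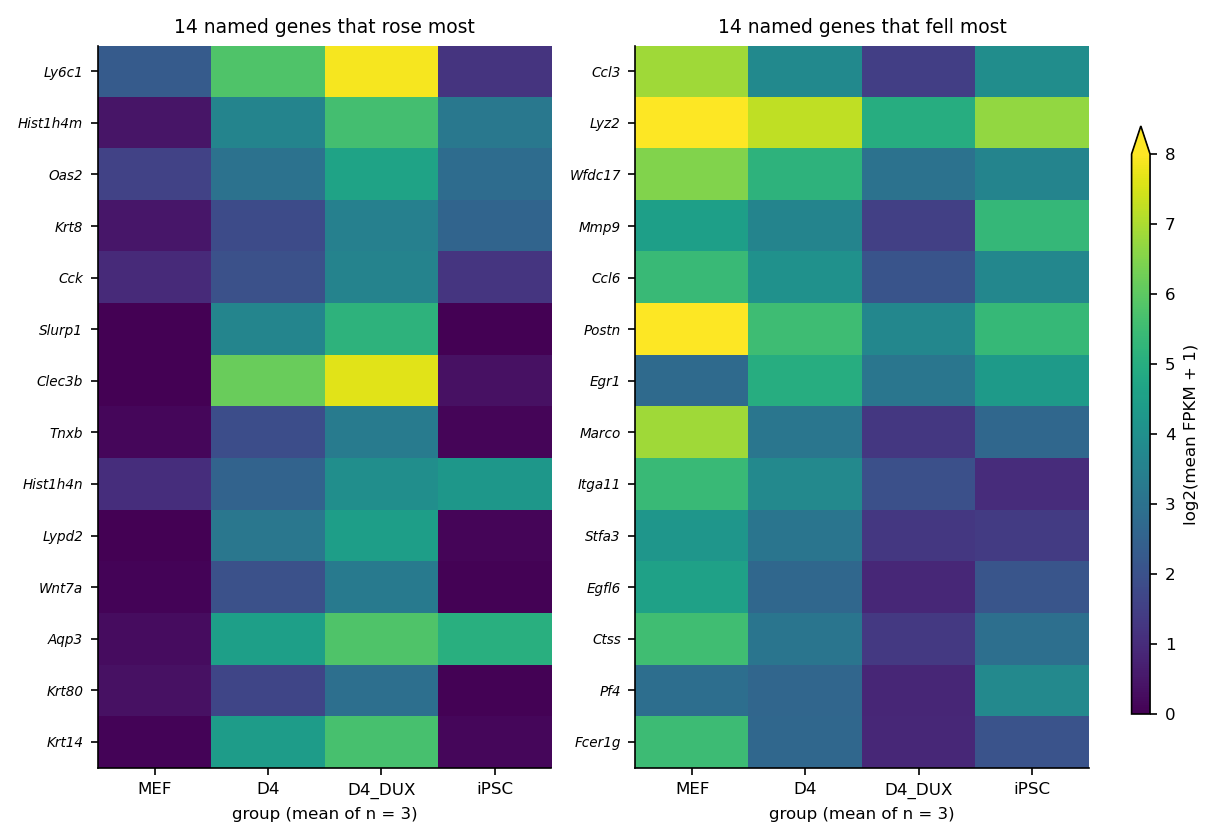
Mean level (colour, log2(mean FPKM + 1), the scale ends at 8) of the 14 named genes with the highest and the 14 with the lowest log2 fold change (rows) in MEF, D4, D4_DUX and iPSC (columns, n = 3 each). Many risers, such as Clec3b, Slurp1 and Krt14, are dark in MEF and iPSC; many fallers are brightest in MEF.

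**Figure D4:**
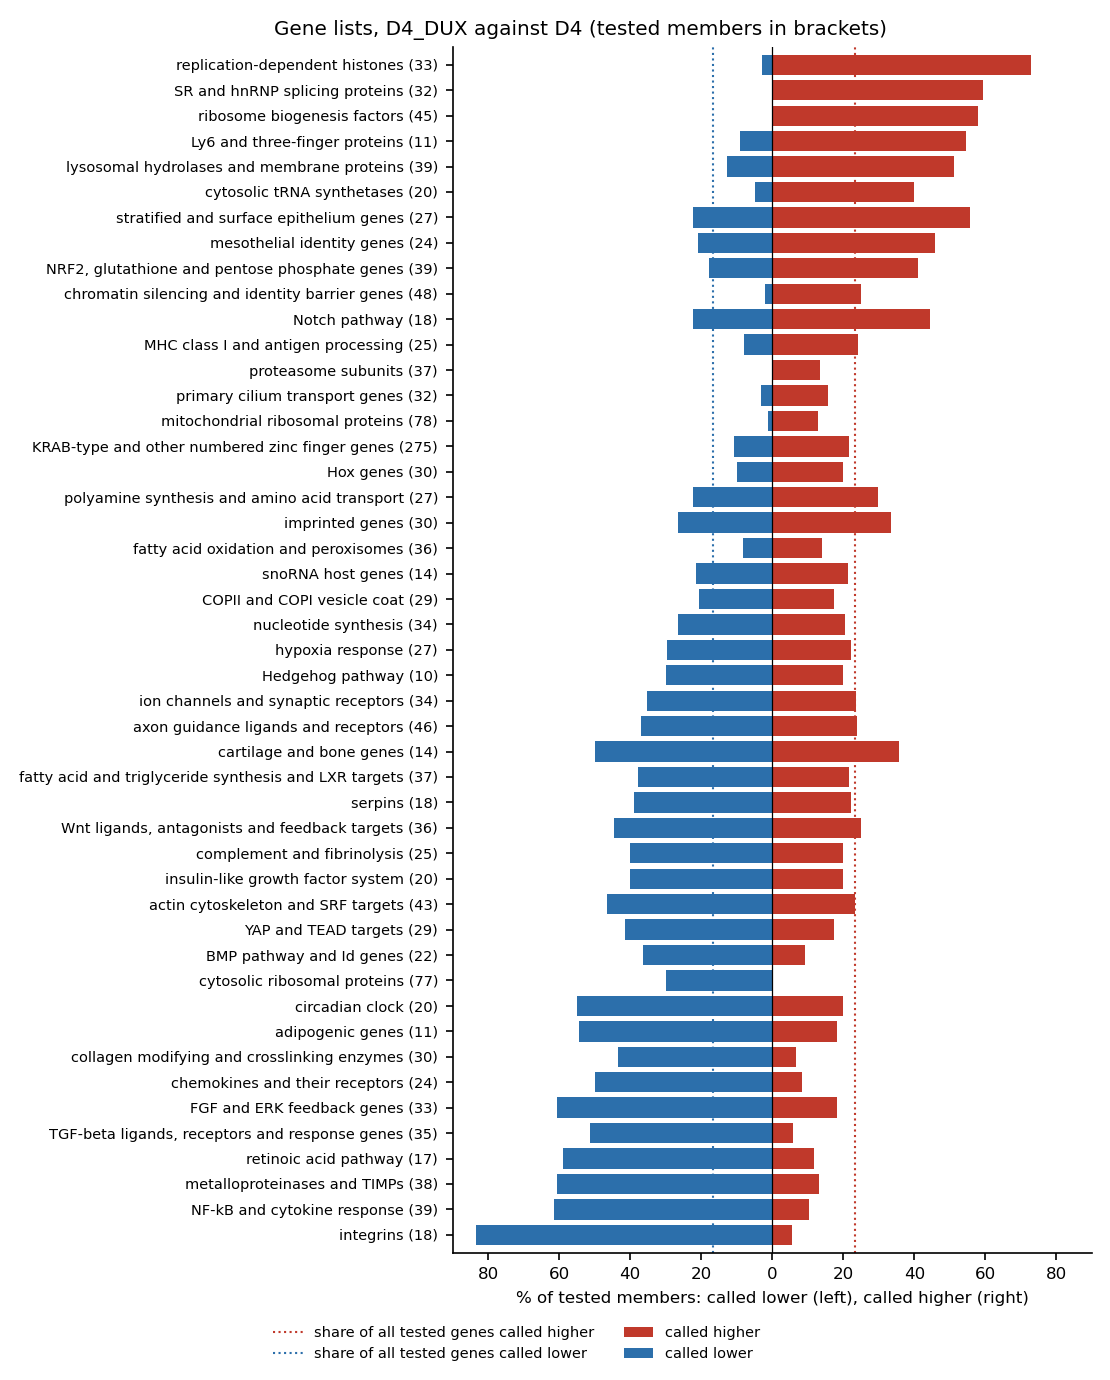
Share of the tested members of 47 gene lists called lower (blue, to the left) or higher (red, to the right) in D4_DUX, in percent of tested members (number in brackets). Dotted lines mark the shares of all tested genes, 16.6% lower and 23.4% higher. Replication-dependent histones (24 of 33 higher) and integrins (15 of 18 lower) are at the ends. The counts include genes that passed the filter only through D4 or only through D4_DUX.

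Integrins, the receptors that join cells to matrix, had the largest share of lower genes among the 47 lists: of 28 listed 18 passed the filter, with 15 lower, 1 higher and a median of -0.30. Itga11, a collagen receptor of fibroblasts, was at 12.1, 12.2 and 13.3 FPKM in D4 and 2.94, 2.825 and 2.87 in D4_DUX (log2 fold change -1.80, SE 0.11, adjusted p = 6.46e-07). Itga5, the alpha chain of the fibronectin receptor, was at 50.02, 52.6 and 50.4 and 39.6, 37.85 and 38.1 (-0.40, adjusted p = 3.8e-05). Itgb4, the laminin receptor chain of hemidesmosomes in epithelia, was the exception, at 70.7, 70.3 and 76.9 and 103, 99.05 and 104 (0.49, adjusted p = 3.62e-05). Its mean was 0.374 FPKM in MEF and 1.94 in iPSC. The leukocyte integrins Itgb2 and Itgam fell from 3.99 to 0.983 FPKM (-1.33) and from 3.53 to 0.837 FPKM (-1.30), beside the macrophage markers given above, whose part in it was not tested. Itga8, the nephronectin receptor chain, fell from 2.802 to 0.917 FPKM (-0.99), and Itgb3, of the vitronectin receptor, from 20.5 to 12.7 FPKM (-0.65).

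Most tested matrix proteases were called lower, and fewer of the enzymes that modify collagen. Of 69 listed metalloproteinases of the MMP, ADAM and ADAMTS families with their inhibitors, 38 passed the filter, with 23 lower and 5 higher and a median of -0.32. Mmp3, stromelysin 1, was at 324, 323 and 315 FPKM in D4 and 199, 183 and 162 in D4_DUX (-0.82, adjusted p = 0.000724), and Mmp13, a collagenase, at 94.1, 91.4 and 88.5 and 47.2, 47.4 and 39.7 (-1.02, adjusted p = 0.0001395). Mmp9, a gelatinase made by macrophages among other cells, fell from 11.1 to 1.83 FPKM (-2.10). Each of these groups was separate. Timp1 and Timp3 fell from 671 to 510.1 FPKM (-0.39) and from 530.1 to 432 FPKM (-0.30), whereas Timp2 rose as given above. The other risers were Mmp28, at 10.4, 10.3 and 9.745 and 17.1, 16.7 and 18.6 (0.73), an epidermal MMP, and the sheddases Adam10, Adam15 and Adam17 (log2 fold changes 0.22, 0.23 and 0.22). Of 30 tested collagen-modifying enzymes 13 were lower, 2 higher and 15 not called (median -0.13), and 10 were lower without D4 replicate 1 or 2. Lox, the lysyl oxidase that crosslinks collagen and elastin, was at 1051, 1040 and 1050 and 553, 599 and 601.5 (-0.84, adjusted p = 1.87e-05), and Loxl2 at 165.5, 165.5 and 168 and 118, 121.5 and 124 (-0.45). The prolyl hydroxylase P3h2 fell from 4.71 to 2.31 FPKM (-0.79). Pcolce and Pcolce2, which enhance procollagen cleavage, were the 2 called higher (214 to 235 FPKM (0.13) and 6.87 to 8.68 FPKM (0.30)). Without D4_DUX replicate 1 neither was called (adjusted p = 0.0926 and 0.0614). Pcolce was also lost without D4 replicate 1 or 3 or D4_DUX replicate 2, and Pcolce2 without D4 replicate 2 or D4_DUX replicate 3 (adjusted p = 0.072 to 0.0964). The matricellular genes Thbs1 and Thbs2 had large falls in level, from 2051 to 1179 FPKM (-0.80) and from 333 to 145 FPKM (-1.19).

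Genes of the actin cytoskeleton and targets of the factor SRF were more often lower than higher. Of 43 tested, 20 were lower and 10 higher, against 16.6% and 23.4% of all genes, with a median of -0.12. The share of risers was near that of all genes. Those that fell include genes of smooth muscle type contraction: Tagln, the actin-binding protein transgelin, was at 78.2, 80.6 and 71.5 FPKM in D4 and 43.5, 44.9 and 46.8 in D4_DUX (-0.75, adjusted p = 0.000176), and Myl9, a regulatory light chain of myosin, at 62.3, 68.7 and 57.85 and 38.3, 39.6 and 41.1 (-0.65, adjusted p = 0.0011). Des, the muscle intermediate filament desmin, fell from 11.2 to 5.04 FPKM (-1.02) and Lmod1, an actin nucleator of smooth muscle, from 5.41 to 2.51 FPKM (-0.87). Acta2, smooth muscle actin, was at 356, 360 and 332.5 and 289.5, 291 and 284, without overlap, and did not pass the test (adjusted p = 0.0668). Fhl1, a LIM protein, rose from 17.2 to 23.6 FPKM (0.44), and Myl6, the essential light chain of non-muscle myosin, from 132 to 163 FPKM (0.30). The count of risers was 6 without D4 replicate 1, 6 without D4_DUX replicate 2 or 3, and 4 without D4_DUX replicate 1. The CArG box, the motif of the factor SRF, was in 11 of 46 promoters (23.9%) of this list, against 1.33% of tested promoters. The list was drawn up to hold SRF targets, so this share reflects its choice and is no result of these data. Of the 10 genes with the box 4 were lower (Myl9, Fhl2, Lima1 and Vcl), 4 higher (Fhl1, Myl6, Acta1 and Srf) and 2 not called. Vcl was called only with all libraries or without D4 replicate 2 (adjusted p = 0.0635 to 0.0945 without any other library), Acta1 was lost without D4 replicate 1 or D4_DUX replicate 1 or 2 (0.0605 to 0.0747), and Srf without D4_DUX replicate 1 (0.051). The promoters of Myl9 at chr2:156775214-156775513 (plus strand) and of Zfp36, no member of the list, at chr7:28379179-28379478 (minus strand) are shown because both genes fell, with the CArG box in capitals.
Myl9: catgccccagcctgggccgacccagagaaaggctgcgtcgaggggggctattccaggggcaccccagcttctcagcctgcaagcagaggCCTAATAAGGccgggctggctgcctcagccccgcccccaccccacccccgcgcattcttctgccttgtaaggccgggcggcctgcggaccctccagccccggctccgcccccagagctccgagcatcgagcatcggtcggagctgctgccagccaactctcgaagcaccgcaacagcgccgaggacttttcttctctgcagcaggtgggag
Zfp36: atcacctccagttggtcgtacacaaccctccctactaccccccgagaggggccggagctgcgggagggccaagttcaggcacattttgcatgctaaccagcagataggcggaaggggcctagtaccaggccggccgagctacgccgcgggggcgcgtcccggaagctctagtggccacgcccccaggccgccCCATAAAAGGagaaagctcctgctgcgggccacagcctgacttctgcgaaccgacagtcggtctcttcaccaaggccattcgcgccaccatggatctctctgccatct

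In the TGF-beta pathway, whose ligands drive matrix synthesis and block the switch to epithelial cells, 18 of 35 tested genes were lower and 2 higher (median -0.14). Among ligands, Inhba, the activin A chain, was at 53.9, 49.1 and 52.7 FPKM in D4 and 25.04, 27.7 and 26.2 in D4_DUX (-0.95, adjusted p = 2.97e-07). All 3 TGF-beta ligand genes fell, Tgfb1 from 8.23 to 5.16 FPKM (-0.58), Tgfb2 from 10 to 6.86 FPKM (-0.49) and Tgfb3 from 22.7 to 15.4 FPKM (-0.53). The latent binding proteins Ltbp1 and Ltbp2 fell from 16.9 to 11.7 FPKM (-0.49) and from 30.98 to 18.6 FPKM (-0.71). Of the receptors, Tgfbr2, the ligand-binding receptor, rose, at 49.2, 46.4 and 51.4 and 68.9, 66.05 and 65.5 (0.44, adjusted p = 2.32e-05), as did the co-receptor Eng (11.99 to 14.1 FPKM (0.22)), while the co-receptor Tgfbr3 fell (24.75 to 20.35 FPKM (-0.27)). Smad7, the inhibitor that the pathway induces, fell from 8.87 to 5.25 FPKM (-0.66), and Skil and Pmepa1, also feedback inhibitors, from 10.3 to 8.095 FPKM (-0.31) and from 26.6 to 22.7 FPKM (-0.22). In the BMP list 8 of 22 were lower and 2, Id2 and Smad5, higher. Id3, a target of BMP signals, was at 43.9, 44.85 and 42.4 and 30.6, 31.2 and 31.4 (-0.48), and Id2, of the same family, rose (4.597 to 5.89 FPKM (0.30)). Smad5 was not called without D4 replicate 1 or 2 or D4_DUX replicate 1 or 3 (adjusted p = 0.0938 to 0.165), and the number higher was 1 without D4 replicate 1 or 2. Of 29 tested YAP and TEAD targets 12 were lower and 5 higher. Beside Ccn2, Ccn1 fell from 447 to 205 FPKM (-1.12), Amotl2 from 105.5 to 65.8 FPKM (-0.67) and Ankrd1 from 4.96 to 2.93 FPKM (-0.60). The 5 higher members, Wwc1, Ajuba, Ptpn14, Dlc1 and Yap1, changed by 0.12 to 0.48, and 2 or 3 of them were called when any of 5 libraries was left out (D4 replicates 1, 2 and 3, D4_DUX replicates 1 and 3).

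In the list of FGF and ERK signalling 20 of 33 tested genes were lower and 6 higher, with a median of -0.27. It holds feedback genes, which are induced when the kinase cascade is active and restrain it, together with target, ligand and receptor genes. Spry1, an inhibitor of receptor tyrosine kinase signals, was at 11.5, 11.5 and 11.6 FPKM in D4 and 5.99, 6.115 and 5.21 in D4_DUX (-0.89, adjusted p = 4.11e-06), and Etv4, a target transcription factor, at 5.33, 4.36 and 4.51 and 2.31, 2.36 and 2.43 (-0.76). Spry2, Spry4 and the ERK phosphatase gene Dusp6 fell as well (log2 fold changes -0.51, -0.42 and -0.38). Of the ligands Fgf2 fell from 9.22 to 5.26 FPKM (-0.71) and Fgf7 from 18.6 to 12.7 FPKM (-0.52), and the receptors Egfr and Fgfr1 fell from 14.85 to 9.87 FPKM (-0.54) and from 38.96 to 32.1 FPKM (-0.27). In the opposite direction, Dusp14, a phosphatase of MAP kinase signalling, was at 18.5, 21.8 and 17.5 and 37.1, 37.99 and 38.02 (log2 fold change 0.94, SE 0.07, adjusted p = 2.92e-06), and Fgf18 at 6.41, 6.7 and 5.82 and 11.1, 10.6 and 10.9 (0.70, adjusted p = 0.00094, or 0.074 with a pseudocount of 0.1). The number of risers was 3 without D4 replicate 1, and 3 without D4_DUX replicate 2. Of the 20 that fell 14 were higher in iPSC than in MEF and 4 lower.

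Genes of the Wnt list were more often lower than higher. Of 36 tested genes 16 were lower and 9 higher (median -0.14), the latter a share near the 23.4% of all tested genes. Sfrp1, a secreted antagonist, was at 68.55, 63.6 and 71.2 FPKM in D4 and 29.1, 29.03 and 25.55 in D4_DUX (log2 fold change -1.25, SE 0.05, adjusted p = 5.52e-08), and Dkk3, of the Dickkopf family, at 67.1, 68.2 and 71.9 and 35.4, 35.5 and 32.5 (-0.98, adjusted p = 1.05e-06). Dkk2, Sfrp4 and Frzb fell too (-0.60, -0.32 and -0.31), whereas Sfrp2 rose (0.19), a call lost without D4 replicate 1 (adjusted p = 0.0577) or D4_DUX replicate 2 (0.0513). Lgr4, a receptor for R-spondins, was at 6.91, 6.96 and 6.82 and 10.9, 10.3 and 11.25 (0.58, adjusted p = 2.71e-05), and its relatives Lgr5 and Lgr6 fell (-0.30 and -0.28). The feedback target Axin2 rose from 4.91 to 6.06 FPKM (0.25), Apcdd1 from 17 to 22.1 FPKM (0.36) and the factor gene Tcf7 from 4.45 to 6.04 FPKM (0.37). Ctnnb1, beta-catenin, rose from 101 to 115 FPKM (0.19). In the Notch list 8 of 18 were higher and 4 lower (5 higher without D4_DUX replicate 3). Numb, which inhibits Notch, rose from 10.6 to 13.8 FPKM (0.35), and the receptor gene Notch3 and the target Hes1 fell from 7.91 to 5.104 FPKM (-0.55) and from 21.85 to 17.2 FPKM (-0.33). The Hedgehog list had 2 of 10 higher and 3 lower, led by the co-receptor Boc (15.4 to 9.78 FPKM (-0.60)). The number higher was 1 without D4 replicate 1 and 3 without D4 replicate 3, and Foxf1, higher at an adjusted p of 0.0495, was lost without any library other than D4 replicate 3 (0.0786 to 0.18).

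Retinoic acid genes were lower in 10 of 17 tested and higher in 2 (median -0.37). Of the 2, Rxra was called with all libraries or without D4 replicate 1, and not without any other library (adjusted p = 0.0723 to 0.131). The cytosolic carriers fell: Crabp1, which binds retinoic acid, was at 230.4, 242 and 256 FPKM in D4 and 160, 163 and 145 in D4_DUX (-0.64, adjusted p = 7.15e-05), and Crabp2 fell from 198 to 141 FPKM (-0.49). So did the synthetic enzyme Aldh1a2, at 6.11, 8.04 and 6.91 and 2.31, 3.25 and 3.82 (-0.97, adjusted p = 0.00028), and the degrading enzyme Cyp26b1 (12.2 to 6.65 FPKM (-0.79)). Rdh10, which makes retinaldehyde from retinol, rose, at 7.08, 7.105 and 7.05 and 9.68, 10.05 and 11.3 (0.49). The fallers thus include genes of synthesis, binding and removal of the ligand.

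Of 20 tested genes of the circadian clock 11 were lower and 4 higher. Dbp, an output factor of the clock, was at 9.18, 9.62 and 10.03 FPKM in D4 and 5.73, 6.295 and 5.94 in D4_DUX (-0.60, adjusted p = 1.26e-05). The repressors Per1, Per2, Per3 and Cry1 fell (-0.30, -0.36, -0.28 and -0.31), and so did Nr1d1 (-0.26). Of the activators, Arntl was called higher (3.075 to 3.61 FPKM (0.18)), a call lost without any of the 6 libraries (adjusted p = 0.0594 to 0.137), and so was Clock (4.11 to 4.885 FPKM (0.21)). The latter was not called without D4 replicate 2 (adjusted p = 0.069) or without D4_DUX replicate 1 (0.0841), and 7 genes of the list were lower without D4 replicate 1. The count of risers was 1 or 2 with any of the 6 libraries left out. The hour of harvest is not given in the labels, and its part was not tested.

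In the insulin-like growth factor system 8 of 20 tested genes were lower and 4 higher (2 higher without D4 replicate 2). The ligand gene Igf2 was at 109.7, 114 and 113.5 FPKM in D4 and 56.4, 58.03 and 53.5 in D4_DUX (log2 fold change -0.99, SE 0.05, adjusted p = 1.46e-07), and Igf1 fell from 4.29 to 1.51 FPKM (-1.075). H19, the imprinted non-coding RNA gene beside Igf2, was at 641, 680 and 660.4 and 478.5, 487 and 455 (-0.48, adjusted p = 2.71e-05). Igfbp2, a binding protein, fell from 11.6 to 3.64 FPKM (-1.44) and Pappa, a protease of the binding proteins, from 11.4 to 6.69 FPKM (-0.68), while Igfbp5 rose from 2.79 to 3.925 FPKM (0.38), a call lost without D4 replicate 2 (adjusted p = 0.0517). The imprinted list, which shares Igf2 and H19, had 10 of 30 higher and 8 lower. Cdkn1c, a growth-restraining inhibitor of cyclin-dependent kinases, fell from 6.43 to 4.06 FPKM (-0.55), and Grb10, an adaptor of insulin receptor signalling, from 111 to 86.99 FPKM (-0.34). Tssc4, on the same chromosome 7 domain as Cdkn1c, rose from 16.8 to 25.5 FPKM (0.58).

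Most tested inflammatory genes were called lower. Of 39 tested NF-kB and cytokine response genes 24 were lower and 4 higher (median -0.29). Il6, a cytokine of activated fibroblasts and macrophages, was at 24.6, 26.85 and 24.3 FPKM in D4 and 10.04, 12.15 and 10.3 in D4_DUX (-1.15, adjusted p = 9.43e-06). Ptgs2, the inducible cyclooxygenase, was at 78.6, 76.6 and 76.8 and 36.01, 36.1 and 34.6 (-1.10, adjusted p = 1.87e-08). Nfkbia, the inhibitor that NF-kB induces, was at 99.4, 108 and 95.2 and 58.6, 63.3 and 62.2 (-0.71, adjusted p = 9.22e-07). The D4_DUX libraries were the lower ones in each gene, with no overlap. Il1b, made mainly by myeloid cells, fell from 4.77 to 0.421 FPKM (-2.02), Tnfaip3 from 7.82 to 4.15 FPKM (-0.78) and Lif from 9.96 to 4.42 FPKM (-1.015). The higher ones were Il1rl1, Il18, Nfkbib and Rela, with changes of 0.22 to 0.45, and 2 of them were called without D4 replicate 1 or without D4_DUX replicate 1. Of 64 listed chemokines and receptors 24 passed the filter, 12 of them lower and 2 higher (median -0.33). Cxcl1, a chemokine for neutrophils, was at 46.5, 54.95 and 49.02 and 26.1, 30.6 and 26.05 (-0.84, adjusted p = 1.21e-05), Cxcl2 at 3.62, 3.97 and 4.03 and 0.719, 1.13 and 0.748 (-1.39) and Ccl3, of macrophages, at 12.02, 13.8 and 13.04 and 2.26, 1.53 and 1.69 (-2.31). Ccl8, a chemokine for monocytes and lymphocytes, went the other way, at 26.9, 31.2 and 26.7 and 55.98, 55.35 and 56.1 (0.96, adjusted p = 0.000172). The summed macrophage markers, 187 to 222 FPKM in D4 and 48.9 to 49.8 in D4_DUX and mostly Lyz2, moved with these lists, and their part in it was not tested.

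The NF-kB motif GGGANTTTC was in 5 of 40 promoters (12.5%) of the NF-kB and cytokine list, against 0.944% of tested promoters and 1.11% of all in the table. The list was drawn up to hold NF-kB response genes, so this share reflects its choice and is no result of these data. The motif was in 0.974% of promoters of genes called lower and 1.1% of those called higher, in 1.41% and 2.96% at a change of at least 0.5, and in 4.17% and 3.12% at a change of at least 2-fold. The promoters of 3 cytokine genes that fell are shown, with the match in capitals: Cxcl1 at chr5:90890995-90891294 (plus strand), Cxcl2 at chr5:90903649-90903948 (plus strand) and Il6 at chr5:30012864-30013163 (plus strand). A match is a description of the letters in the window.
Cxcl1: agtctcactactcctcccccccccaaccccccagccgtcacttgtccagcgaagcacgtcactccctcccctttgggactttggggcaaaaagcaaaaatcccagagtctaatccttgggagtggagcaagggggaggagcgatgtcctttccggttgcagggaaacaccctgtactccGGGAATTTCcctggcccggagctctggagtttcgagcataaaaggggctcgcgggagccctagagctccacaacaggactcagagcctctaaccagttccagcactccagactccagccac
Cxcl2: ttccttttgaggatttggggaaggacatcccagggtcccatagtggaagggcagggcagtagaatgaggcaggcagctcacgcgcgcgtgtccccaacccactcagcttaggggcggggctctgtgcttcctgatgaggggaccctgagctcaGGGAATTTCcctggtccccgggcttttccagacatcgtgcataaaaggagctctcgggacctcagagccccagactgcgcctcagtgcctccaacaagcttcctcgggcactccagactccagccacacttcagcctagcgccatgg
Il6: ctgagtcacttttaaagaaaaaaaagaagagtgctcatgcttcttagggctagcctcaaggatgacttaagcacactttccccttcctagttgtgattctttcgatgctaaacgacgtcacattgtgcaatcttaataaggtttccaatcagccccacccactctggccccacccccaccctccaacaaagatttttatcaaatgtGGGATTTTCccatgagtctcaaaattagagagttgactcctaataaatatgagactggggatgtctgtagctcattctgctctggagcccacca

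Of 25 tested MHC class I and antigen processing genes 6 were higher, a share near the 23.4% of all tested genes, and 2 lower (median 0.07). Without D4 replicate 2 the count of risers was 10. Nlrc5, which activates the class I genes, was at 1.31, 1.69 and 1.63 FPKM in D4 and 3.035, 2.87 and 2.703 in D4_DUX (0.61, adjusted p = 0.000512), and Tapbp, the peptide-loading factor tapasin, at 29.9, 34.3 and 29.2 and 40.8, 38.4 and 39.9 (0.34). H2-T22 and H2-T10 were called lower (-0.24 and -0.27). Neither was called without D4_DUX replicate 3 (adjusted p = 0.0669 and 0.0534), and H2-T22 was also lost without D4 replicate 1 or 2 or D4_DUX replicate 1 (0.0872 to 0.109). They are in a family of near-identical genes whose fragments the counting could have split. In the complement and fibrinolysis list 10 of 25 were lower and 5 higher. F3, tissue factor, fell from 77.1 to 41.2 FPKM (-0.89) and C1s1, a protease of the classical pathway, from 166 to 130.3 FPKM (-0.34). Among the risers C4b, a complement component, was at 1.08, 1.255 and 1.02 and 3.53, 3.202 and 3.61 (1.07, adjusted p = 1.59e-06) and Cd55, which protects cells from complement, at 75.55, 69.8 and 73.3 and 109, 107 and 104.5 (0.54, adjusted p = 8.76e-05).

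Lists of RNA handling and of the ribosome differed in the direction of their calls. Of 32 tested SR and hnRNP proteins, which bind pre-mRNA and guide splicing, 19 were higher, 13 not called and none lower, with a median of 0.19. Srsf6 was at 20.25, 22.96 and 22.2 FPKM in D4 and 36.8, 33.8 and 35.7 in D4_DUX (log2 fold change 0.68, SE 0.05, adjusted p = 1.59e-06). Tra2a, a splicing regulator, was at 11.03, 11.4 and 11.8 and 18.5, 17.8 and 18.5 (0.64), Srsf2 at 28.3, 29.7 and 29.2 and 43.2, 39.97 and 42.1 (0.51) and Srsf3 at 10.6, 11.5 and 10.97 and 15.1, 15.6 and 16.1 (0.46). The groups were separate in each. Of 45 ribosome biogenesis factors 26 were higher, 19 not called and none lower (median 0.16). Of 14 snoRNA host genes 3 were higher and 3 lower (median -0.02), and none was lower without D4 replicate 2 or D4_DUX replicate 1, and 1 without D4 replicate 1 or D4_DUX replicate 2. Tsr1, which acts in assembly of the small subunit, was at 11.8, 11.6 and 12.1 and 15.1, 16.3 and 16.2 (0.40, adjusted p = 9.82e-06). The box C/D snoRNP proteins Nop56 and Nop58 rose from 17.4 to 22.7 FPKM (0.36) and from 5.515 to 7.396 FPKM (0.37), and Ubtf, a factor for ribosomal RNA transcription, from 13.35 to 17.3 FPKM (0.35). By contrast, of 77 tested cytosolic ribosomal proteins 23 were lower and none higher, with a median of -0.13. Rpl3 was at 401, 418 and 384 and 343, 361 and 346.5 (-0.19, adjusted p = 0.00354), and the highest member of the list had a log2 fold change of 0.01.

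The count of lower ribosomal proteins was sensitive to single libraries: it was 14, 13 and 36 without D4 replicates 1, 2 and 3, and 13 and 15 without D4_DUX replicates 1 and 3. With median-ratio scaling, which takes the median of all genes from 0.04 to 0.01, 35 were lower. In iPSC 18 of the 23 were higher than in MEF and 1 lower, whereas all 26 called biogenesis factors and 18 of the 19 called splicing proteins were higher in iPSC. Mitochondrial ribosomal proteins were higher in 10 of 78 and lower in 1, a smaller share than that of all genes, and 6 were higher without D4 replicate 3. Of 20 cytosolic tRNA synthetases 8 were higher and 1, Mars, lower. Proteasome subunits were higher in 5 of 37 and lower in none, again less than the background, and in 8 without D4 replicate 2.

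**Figure D5:**
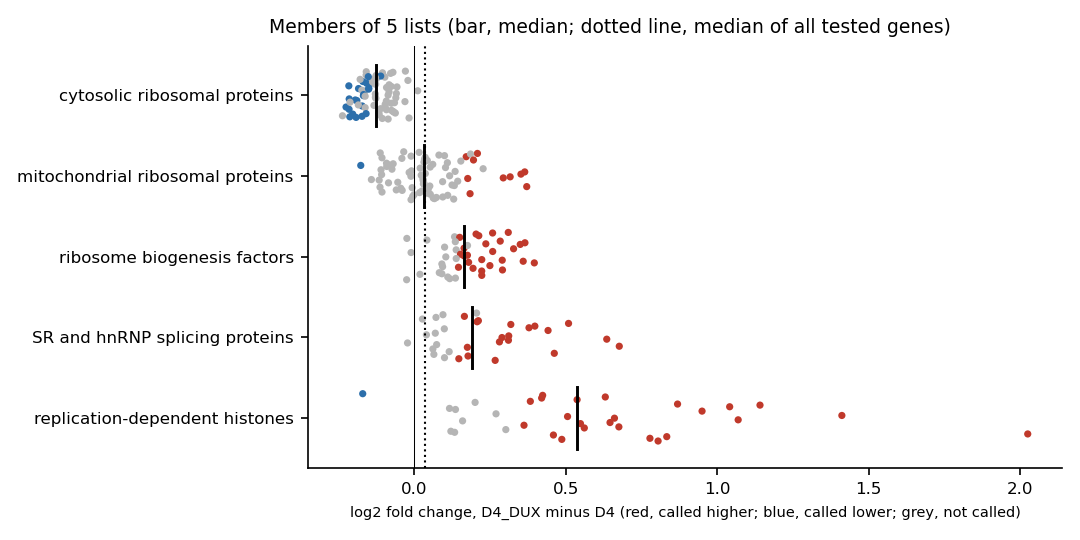
Log2 fold change, D4_DUX minus D4 (x axis), of every tested member of 5 lists (rows), with red for called higher, blue for called lower and grey for not called; the black bar is the median of the list and the dotted line that of all tested genes, 0.04. Ribosome biogenesis, splicing and histone medians (0.16, 0.19 and 0.54) lie above it and the cytosolic ribosomal protein median (-0.13) below.

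Replication-dependent histone genes, whose mRNAs end in a stem-loop and normally carry no poly(A) tail, were mostly called higher. Of 66 listed 33 passed the filter, with 24 higher, 1 lower and a median of 0.54. Some risers passed it through D4_DUX, where they were high, such as Hist1h3c (0.473 to 1.62 FPKM), Hist1h4c (0.543 to 1.97) and Hist1h2be (0.656 to 1.43). With FPKM of at least 5 in 3 libraries as the filter, 10 were higher. Hist1h4m, an H4 gene, was at 10.1, 9.82 and 13.8 FPKM in D4 and 50.8, 45.25 and 49 in D4_DUX (log2 fold change 2.02, SE 0.14, adjusted p = 1.52e-06), and Hist1h4n at 5.03, 4.52 and 5.001 and 15.02, 14.45 and 14.2 (1.41). Hist1h2bc, the most abundant H2B gene, was at 68.8, 66.6 and 63.3 and 91.9, 85.8 and 89.2 (0.42). The 1 lower member was the linker histone Hist1h1c (93 to 82.5 FPKM (-0.17)), which was not called without D4 replicate 1 or 2 or without D4_DUX replicate 2 or 3. All 24 that rose were also higher in iPSC than in MEF. The libraries were made from poly(A)-selected RNA, so these values count only the transcripts that were captured, and histone genes share sequence. Cyclin D1 rose as given above, while the ribonucleotide reductase genes Rrm1 and Rrm2, of S phase, fell from 22.2 to 19.2 FPKM (-0.20) and from 42.1 to 34.2 FPKM (-0.29).

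Genes of chromatin silencing and of the barrier to identity change were mostly not called: 12 of 48 were higher and 1 lower (median 0.05), against 23.4% and 16.6% of all genes. Mbd3, a subunit of the NuRD complex, was at 38, 35.4 and 35.5 FPKM in D4 and 44.6, 45.9 and 46.5 in D4_DUX (0.32, adjusted p = 0.004915), the H3K9 methyltransferase gene Setdb1 rose from 7.26 to 8.77 FPKM (0.24) and the heterochromatin protein gene Cbx3 fell from 11.7 to 10.3 FPKM (-0.17). Chaf1a, the large subunit of the histone chaperone CAF-1, had a log2 fold change of 0.05 (adjusted p = 0.469). Of 275 tested numbered zinc finger genes, many of which silence transposons, 59 were higher and 30 lower (18 lower without D4_DUX replicate 1), close to the background for the risers. Of 30 Hox genes 6 were higher and 3 lower. The risers numbered 2 or 3 without D4 replicate 1, 2 or 3 or D4_DUX replicate 1 or 3, and the fallers 1 without D4 replicate 3 or D4_DUX replicate 1.

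Lysosomal genes rose in 20 of 39 tested and fell in 5, with a median of 0.15. Lamp1, the main lysosomal membrane protein, was at 240.5, 257 and 232 FPKM in D4 and 315, 312 and 313.5 in D4_DUX (0.37, adjusted p = 0.000226), and Ctsk, the collagen-degrading cathepsin K, at 30.9, 30.5 and 26.6 and 46.9, 45.7 and 47.3 (0.65, adjusted p = 0.000385). Ctsd, cathepsin D, rose from 396 to 469 FPKM (0.25) and Tpp1, a peptidase, from 45.8 to 60.7 FPKM (0.40). Those that fell were Ctss, the cathepsin of antigen-presenting cells (7.55 to 1.497 FPKM (-1.79)), Ctsh, Ctsc, Lgmn and Npc1. With quantile normalization 8 were lower. Of the 20 risers 3 were higher and 12 lower in iPSC than in MEF.

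Genes of antioxidant defence under the factor Nrf2 and of glutathione and pentose phosphate metabolism were higher in 16 of 39 and lower in 7 (4 lower without D4 replicate 2 or D4_DUX replicate 1). Pgd, an oxidative enzyme of the pentose phosphate path, was at 29.04, 27.9 and 29.8 FPKM in D4 and 38.2, 37.05 and 36.5 in D4_DUX (0.35, adjusted p = 1.915e-05). Mt1, a metallothionein, was at 34.7, 38.8 and 34.8 and 50.03, 52.2 and 56.7 (0.54), and G6pdx, the first enzyme of that path, rose from 27.6 to 34.4 FPKM (0.31). The secreted antioxidant enzymes fell: Gpx3 was at 74.7, 75.7 and 71.6 and 42.9, 43.5 and 44.2 (-0.75, adjusted p = 3.12e-05), and Sod3 fell from 40.6 to 24.6 FPKM (-0.70). The metallothionein Mt2 fell from 77.1 to 62.3 FPKM (-0.30), opposite to Mt1.

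Genes of lipid synthesis were more often lower than higher, and those of fatty acid oxidation and peroxisomes were mostly not called. Among 36 tested genes of oxidation and peroxisomes 5 were higher and 3 lower, both shares below those of all tested genes. With quantile normalization 2 were higher and 11 lower. Of 37 tested genes of fatty acid and triglyceride synthesis and targets of the oxysterol receptor LXR, 14 were lower and 8 higher. The share of risers was below the 23.4% of all tested genes, and that of fallers was above the 16.6% of all. The desaturase Fads1 fell from 32.9 to 22.1 FPKM (-0.55), and the acyl-CoA synthetases Acsl3 and Acsl4 from 6.955 to 4.29 FPKM (-0.59) and from 18.3 to 13.1 FPKM (-0.45). Nr1h3, LXR alpha itself, was at 1.275, 1.19 and 1.41 FPKM in D4 and 3.31, 2.52 and 2.675 in D4_DUX (0.74, adjusted p = 3.885e-05), and Abca1, its target and a cholesterol exporter, at 35.9, 32.85 and 36.3 and 49.3, 48.3 and 49.6 (0.48, adjusted p = 1.62e-05), while the targets Mylip and Abcg1 fell from 7.798 to 4.38 FPKM (-0.72) and from 2.55 to 1.46 FPKM (-0.53). Among genes of the response to low oxygen 8 of 27 were lower and 6 higher, the latter a share near that of all genes. Hif1a and Epas1, alpha subunits of the hypoxia factors, moved in opposite directions, Hif1a from 71.5 to 52.8 FPKM (-0.43) and Epas1 from 8.91 to 12.7 FPKM (0.47). Adm, the vasoactive peptide adrenomedullin, was at 30.4, 32.5 and 31.3 and 13.99, 14.7 and 14.5 (-1.07, adjusted p = 4.77e-07). In nucleotide synthesis 7 of 34 were higher, all of them also higher in iPSC, and 9 lower. Its share of risers was below that of all genes. The purine enzymes Ppat, Paics and Atic rose (0.39, 0.24 and 0.25) and the CTP synthase gene Ctps fell from 88.3 to 69.6 FPKM (-0.34). Slc7a2, a transporter of arginine, fell from 10.1 to 4.25 FPKM (-1.09), and Amd1, of polyamine synthesis, rose from 14.8 to 20 FPKM (0.41).

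Guidance molecules of axons, which also position other cells, were higher in 11 of 46 and lower in 17. The share of risers was near the 23.4% of all tested genes, and that of fallers was above the 16.6% of all. Ephb6, an Eph receptor without kinase activity, was at 6.2, 6.04 and 6.02 FPKM in D4 and 13.2, 12.2 and 11.8 in D4_DUX (log2 fold change 0.92, SE 0.06, adjusted p = 9.52e-07). Sema3b, a secreted semaphorin, was at 7.575, 7.46 and 7.404 and 13.9, 13.49 and 14.04 (0.81) and the receptor gene Plxna2 at 4.47, 4.12 and 4.44 and 7.797, 7.265 and 7.94 (0.70). The netrin genes Ntn1 and Ntn3 rose from 12.4 to 17.5 FPKM (0.46) and from 2.18 to 4.5 FPKM (0.79). The neuropilins Nrp1 and Nrp2, co-receptors of semaphorins and VEGF, fell from 5.94 to 4 FPKM (-0.47) and from 22.6 to 13.9 FPKM (-0.66). Of 18 tested serpins 7 were lower and 4 higher, and the 4 were all of clade B, Serpinb9b, Serpinb6c, Serpinb1a and Serpinb7, although Serpinb6b of the same clade fell. Adipogenic genes were lower in 6 of 11, with the factor Cebpa at 1.88 and 0.703 FPKM (-0.75), while Pi16, a marker of progenitor fibroblasts, rose from 9.11 to 15.3 FPKM (0.69). In the cartilage and bone list 7 of 14 were lower and 5 higher. Bglap2, osteocalcin 2, and Spp1, osteopontin, fell from 8.91 to 3.68 FPKM (-1.08) and from 604 to 380.4 FPKM (-0.67), and Prg4, the lubricant of joints, rose from 2.496 to 4.91 FPKM (0.76). Of the 34 tested ion channel genes 12 were lower and 8 higher (5 higher without D4 replicate 2), and of 32 genes of the primary cilium 5 were higher and 1 lower. The shares of serpin and ion channel genes called higher were near that of all tested genes, and both cilium shares were below the background.

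Called genes that neighbour each other on a chromosome formed 11 runs of at least 4 consecutive tested genes that changed the same way by at least 0.5 on the log2 scale, 6 higher and 5 lower. The run on chromosome 11 from 83525778 to 83706268 (GRCm38) held the chemokines Ccl5, Ccl9, Ccl6, Ccl3 and Ccl4 and Wfdc17, all lower (-0.78 to -2.31). On chromosome 5, from 90772435 to 90905938, Pf4, Cxcl3, Cxcl1 and Cxcl2 were lower (-0.84 to -1.78). On chromosome 9, from 7272514 to 7510240, Mmp13, Mmp12, Mmp3 and Mmp10 were lower (-0.82 to -1.06). The higher runs were Ly6a, Ly6c1, Ly6c2 and a pseudogene on chromosome 15 from 74994877 to 75238768, runs of histone genes on chromosomes 13 (2 runs) and 3, Ifi35, Vat1 and Rnd2 with an antisense gene on chromosome 11, and the Neat1 region of chromosome 19 from 5801941 to 5845478. Thbs1, Gpr176 and 2 non-coding genes on chromosome 2 made up a lower run, and 5 small RNA genes on chromosome 16 the last. Some runs hold genes inside other genes, whose fragments may be the same, so a run is not a count of independent changes. Families of related genes in clusters make up most of them.

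Non-coding genes took part in the difference. Neat1, the long RNA that builds nuclear paraspeckles (chromosome 19, 5824708 to 5845478), had 11.1, 11.1 and 12.5 FPKM in D4 and 27.7, 24.35 and 25.8 in D4_DUX (log2 fold change 1.10, SE 0.06, adjusted p = 2.65e-07). Every D4_DUX library was about 2 times the D4 libraries. Efhd1os, an antisense gene of Efhd1, rose from 2.34 to 9.36 FPKM (1.69), beside Efhd1 itself, and Itpr3os from 4.901 to 10.7 FPKM (0.99). Use of strand in the counting was not given in the sources used here. Reads of a gene and its antisense partner may not be told apart. Of 198 tested lincRNA genes 25.3% were higher and 11.6% lower, and of 750 antisense genes 16.5% and 11.9%. Small RNA genes were counted from poly(A)-selected libraries, where fragments over a microRNA or snoRNA gene can come from its host transcript, and mature microRNAs are not measured. With that limit, Mir24-1 was at 9.14, 14.2 and 11.4 and 20.2, 19.9 and 18.8 FPKM (0.73) and Mir22 at 32.1, 38.5 and 33.2 and 21.8, 21.02 and 22.5 (-0.64). The genes of the Mir143 and Mir145a cluster, known from smooth muscle, were at 3.17, 3.835 and 9.89 and 19.02, 8.34 and 13.49 in D4 and at 1.49, 2.07 and 1.99 and 1.61, 3.99 and 3.88 in D4_DUX (-1.09 and -1.805, adjusted p = 0.0139 and 0.00207). Mir143 was not called without D4_DUX replicate 1 (adjusted p = 0.0508).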

How the data were processed

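Polyadenylated RNA of 12 libraries in 4 groups of 3 was sequenced as stranded paired reads, per the labels' protocols. The authors deposited 1 table of FPKM values for 40384 Ensembl gene IDs. The genome build was mm10, per the submitters' processing notes; the aligner, counter and annotation were not given in the sources used here. Of the IDs 40225 (99.6%) matched GENCODE M21, which gave symbols and positions.

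The FPKM values were analysed as log2(FPKM + 1), which understates changes of genes with low levels. Genes that reached 1 FPKM in 3 or more day 4 libraries were tested; 200 passed only through D4 and 131 only through D4_DUX, and 304 of these were called. A limma fit (version 3.58.1, R 4.3.3) with 4 group means over all 12 libraries and a variance prior following mean expression gave the contrast of D4_DUX minus D4, two-sided, with Benjamini-Hochberg adjustment over all 14532 genes. A gene was called at an adjusted p under 0.05. Fragments and depth were recovered from the FPKM steps and M21 exon lengths. Of low values 57.7 to 59.9% were whole multiples of the step and 79.1 to 81.0% multiples of 0.5.

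The members and the 47 gene lists were chosen with earlier results of these data known, so list counts and medians are descriptions without a test. Named genes were the 30 at each end of the fold change among called protein-coding genes without overlap and with a mean of at least 5 FPKM in the higher group, the 10 with the largest rise and fall in FPKM, the 4 of each list with the smallest adjusted p, runs of neighbours and 10 non-coding genes each way. Other genes named within a list were chosen after their values were seen, and some genes are not reported here. The alternatives tried were other pseudocounts, filters, scalings, fits and leaving out each library.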

Additional observations from a re-analysis of the deposited data

How the results depend on the processing

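Of the 5804 called genes, 77.9 to 100% of those still tested stayed called in the same direction over all alternatives, and 1 turned in direction, under quantile normalization. With FPKM of at least 5 in 3 libraries as the filter, 8435 genes were tested and 1387 were lower, because fewer genes were tested. Leaving out each library in turn gave 2651 to 3032 genes higher and 1963 to 2183 lower. Median-ratio scaling gave 2793 higher and 2731 lower, quantile normalization 3025 and 2815, and voom on recovered fragments 3530 and 2528. At a log2 fold change of at least 0.3 there were 33 runs of neighbouring genes. The groups share replicate numbers, which the labels do not explain. Deviations of same-numbered libraries from their group means correlated at 0.03, 0.07 and -0.02, so the numbers were not taken to pair the libraries; with a replicate block 3095 genes were higher and 2294 lower. With the block 2 cartilage and bone, 5 ion channel and 2 cilium genes were higher. Genes near 1 FPKM rest on few fragments, and their calls are the least certain.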
